A study of Mus musculus and Homo sapiens with 19 samples.

Results

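The genes described here were 32 genes whose products carry cells into, through and out of mitosis. The rule names genes and uses no measured value, although the list was drawn up with earlier results of these data known. A row was taken where its symbol equalled a member's (in capitals for human genes). All 32 were found in each of the 3 sets of counts, among 24421 entries in the 4T1 knockdown table, 57992 in the MDA-MB-231 table and 55573 in the co-culture files. All 32 also passed the filter on low counts in each fit.

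The series profiled mRNA of cultured cells in 19 libraries. 4T1 cells, a mouse mammary carcinoma line, carried the lentiviral vector pLKO.1 with a scrambled short hairpin (shSCR, 3 libraries) or with a hairpin against Phgdh (shPHGDH, 3 libraries), the gene of the first enzyme of serine synthesis. MDA-MB-231 cells, a human breast cancer line, were controls (3 libraries) or were labelled as overexpressing PHGDH from the retroviral vector pLHCX (3 libraries). In the co-culture set, 4T1, EMT6.5 (a second mouse mammary tumour line) and Bend3 (a mouse endothelial line) were each grown alone, and 4T1 or EMT6.5 was grown with Bend3 and both partners were sorted apart, which gave 7 libraries with 1 per condition. How long the partners shared a dish, and whether each transduced line was a pool or a clone, was not stated in the labels. Nothing said that replicates came from separate cultures, so p-values measure only the spread between these libraries, which may be technical.

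Entry into mitosis is driven by CDK1 bound to A- and B-type cyclins, helped by the phosphatase CDC25C and by Polo and Aurora kinases. Kinetochores then attach chromosomes to the spindle, the spindle checkpoint holds back the anaphase-promoting complex (APC/C) until all are attached, and the central spindle and contractile ring divide the cell. Most of these transcripts rise in G2 and M phase, when the repressive DREAM complex has given way to B-MYB and FOXM1. As a group they serve as a common measure of how many cells of a culture are dividing.

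Promoter letters are shown first because the members share them. DREAM and B-MYB complexes are known to bind the CHR, searched here as TTTGAA or, as a second form, TTTAAA. NF-Y binds CCAAT. Each was looked for on both strands. RefSeq windows of GRCm38.p6, from 250 bases before to 50 bases after the start, matched 27 of the 32 members and gave 29 windows, since Ect2 and Prc1 had 2 overlapping windows each. No window was matched for Ccna2, Cdc25c, Aurkb, Tpx2 and Kif20a. CHR letters stood in 26 of 29 member windows (89.7%), against 27.6% of all 32851 windows of the same length. CCAAT stood in 23 of 29 (79.3%), against 37.4% of all windows, and both stood in 22 of 29 (75.9%), against 10.7%. At least 2 CCAAT matches were found in 16 of 29 member windows (55.2%) and in 11.5% of all. Nuf2 and Nusap1 had no CHR and no CCAAT letters. These are matches of letters, not shown to be bound sites.

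The 4 windows printed are of members with both matches and the largest absolute log2 fold changes. These were taken over the knockdown, MDA-MB-231 and the fits of co-culture against culture alone. All 4 ranked by the tumour co-culture fit, where none was called (Ect2 -1.24, Aurka -0.90, Cdca8 -0.84 and Ccnb1 -0.69). All 4 genes lie on the minus strand, each line is 5′ to 3′ along the gene, and capitals mark the CHR and CCAAT letters. The windows are chr3:27153829-27154128 for Ect2, chr2:172370521-172370820 for Aurka, chr4:124936868-124937167 for Cdca8 and chr13:100786437-100786736 for Ccnb1.
Ect2: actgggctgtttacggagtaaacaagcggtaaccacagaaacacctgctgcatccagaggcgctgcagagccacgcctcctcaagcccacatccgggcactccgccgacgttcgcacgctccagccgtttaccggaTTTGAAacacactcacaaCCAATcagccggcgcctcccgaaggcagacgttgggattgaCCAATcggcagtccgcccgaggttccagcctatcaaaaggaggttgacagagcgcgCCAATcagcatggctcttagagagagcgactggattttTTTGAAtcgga
Aurka: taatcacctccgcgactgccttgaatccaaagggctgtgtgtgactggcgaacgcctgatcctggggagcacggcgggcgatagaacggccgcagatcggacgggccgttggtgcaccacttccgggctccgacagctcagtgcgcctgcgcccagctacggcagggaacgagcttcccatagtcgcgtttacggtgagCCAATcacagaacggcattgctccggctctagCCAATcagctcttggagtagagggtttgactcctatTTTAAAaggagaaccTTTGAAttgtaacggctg
Cdca8: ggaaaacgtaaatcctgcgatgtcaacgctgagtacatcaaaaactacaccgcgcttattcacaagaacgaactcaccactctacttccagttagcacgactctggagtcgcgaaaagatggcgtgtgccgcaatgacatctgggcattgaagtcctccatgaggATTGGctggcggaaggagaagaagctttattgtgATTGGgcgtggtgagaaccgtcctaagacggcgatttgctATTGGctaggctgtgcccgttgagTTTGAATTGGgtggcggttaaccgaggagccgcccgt
Ccnb1: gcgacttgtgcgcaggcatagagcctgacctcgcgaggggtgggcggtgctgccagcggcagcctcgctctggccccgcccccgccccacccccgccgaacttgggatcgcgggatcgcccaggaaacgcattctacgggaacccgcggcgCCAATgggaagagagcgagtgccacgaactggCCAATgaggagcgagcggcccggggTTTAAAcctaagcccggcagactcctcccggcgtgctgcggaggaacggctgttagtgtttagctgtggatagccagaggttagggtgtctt
In Ccnb1 the CCAAT matches began 99 and 67 bases before the start and the CHR match 42 bases before it. Those of Aurka began 51 and 19 bases before the start, with CHR matches 18 and 33 bases after it. In Cdca8 the last CCAAT match, on the other strand, overlaps the CHR letters. A pair of CCAAT matches on the same strand whose first letters lie 30 to 35 bases apart, a spacing looked for after these windows had been read, was found in 7 of 29 member windows (24.1%; Aurka, Ccnb1, Ccnb2, Cdca8, Cdk1, Hmmr and Ube2c) and in 1.19% of all windows. Among windows with at least 2 CCAAT matches, the shares were 43.8% of 16 member windows and 10.3% of 3784. Aurka, Ccnb1 and Cdca8, whose windows had been read, are counted in the members' shares, which are therefore not independent of the choice of spacing.

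Gene counts totalled 4.27 M to 7.67 M in the 7 libraries of the co-culture set (M, 1000000 counts). The 6 knockdown libraries held 12.7 M to 20.5 M, and the 6 from MDA-MB-231 cells 19.5 M to 23.8 M. Values are CPM, the counts of a gene per 1000000 gene counts of its library, and fold changes are on the log2 scale after TMM scaling unless said otherwise. The labels were checked by the targeted gene: Phgdh was at 169.99 ± 4.84 CPM (SD, n = 3) in the shSCR libraries and at 20.6 ± 0.811 CPM (SD, n = 3) in the shPHGDH libraries, without overlap. PHGDH went against its label in MDA-MB-231, at 15.8, 16.0 and 18.5 CPM in the control libraries and 5.88, 4.44 and 5.56 CPM in the labelled libraries. Those 3 are therefore called the libraries labelled PHGDH-overexpressing throughout. Control libraries of MDA-MB-231 were titled CTRL, while their counts were headed SCR, letters that mark the scrambled hairpin in 4T1. Whether these controls carried such a hairpin was not stated in the labels. Were the groups exchanged, every MDA-MB-231 direction given here would turn, and whether they were, or whether the construct's transcript went uncounted, was not tested. Epithelial markers were at 5 CPM or more for 12 of 13 genes in every 4T1 library of both sets. The 15 endothelial markers summed to 10017 to 12835 CPM in the 3 Bend3 libraries and to 109 to 230.1 CPM in the tumour lines. MDA-MB-231 had at least 5 CPM of 7 of 13 epithelial markers, and CDH1, which codes for E-cadherin, was at 0.0507 to 0.152 CPM.

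The comparison of shPHGDH with shSCR asked which transcripts differ when PHGDH is lowered in 4T1. The 32 mitosis genes did not move one way: 10 were higher, 11 were lower and 11 did not pass the threshold of an adjusted p under 0.05. With library totals as the scaling 7 were higher and 16 lower, and with a lane term 9 were higher and 16 lower. By the same rule 59.7% of the 11568 tested genes were called (30.1% higher and 29.6% lower). A share of 21 in 32 lies near that background in this fit. With the lane term, 25 of 32 members were called against 50.1% of all genes, a larger share than the background. The members' median was then -0.08 against -0.01 for all tested genes. With the lane term, however, the comparison rests on shSCR 3, the only control library in the lane of the shPHGDH libraries. Without that term, the members' log2 fold changes ran from -0.36 for Nusap1 to 0.27 for Anln. Their median was -0.02 against -0.01 for all tested genes. In RNA from whole cultures, fewer dividing cells and less RNA per dividing cell cannot be told apart. The 13 epithelial markers summed to 4798 to 4959 CPM in shSCR and 4254 to 4364 CPM in shPHGDH, with single markers on both sides: Cdh1 was at 854 to 886 and 558 to 561 CPM, and Krt18 at 902 to 939.9 and 1277 to 1329 CPM. The 15 endothelial markers summed to 64.1 to 71.1 CPM and 92.0 to 95.8 CPM, nearly all from Eng and Egfl7, with Cdh5, Kdr and Pecam1 each under 1 CPM in all 6 libraries. The part of these lists in the result was not tested.

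Among the genes of mitotic entry, 4 were higher and 2 lower in shPHGDH. Ccnb2, which codes for a B-type cyclin, was at 109, 111 and 109 CPM in the shSCR libraries and 129, 125 and 128 CPM in the shPHGDH libraries. All 3 shPHGDH libraries lay above all 3 shSCR libraries, with a log2 fold change of 0.26 ± 0.03 (SE), adjusted p = 1.52e-07. Ccna2, coding for cyclin A, was at 530.3, 546 and 547 CPM in the shSCR libraries and 597, 599.9 and 588 CPM in the shPHGDH libraries, again without overlap (0.18 ± 0.02 SE, adjusted p = 1.31e-07). Ccnb1, the other B-type cyclin of the list, rose by 0.17 ± 0.04 (SE), adjusted p = 2.05e-04, and Aurka, the Aurora kinase of the centrosome, by 0.08 ± 0.03 (SE), adjusted p = 0.0259. Cdc25c, the phosphatase that activates CDK1, moved the other way: it was at 40.7, 36.2 and 37.5 CPM in the shSCR libraries and 31.6, 33.6 and 30.9 CPM in the shPHGDH libraries, and every shPHGDH library lay below every shSCR library (-0.22 ± 0.06 SE, adjusted p = 0.00293). Plk1, the Polo kinase, was also lower (-0.12 ± 0.03 SE, adjusted p = 0.00218). Cdk1 itself was at 355, 353 and 334 CPM in the shSCR libraries and 323, 327 and 327 CPM in the shPHGDH libraries and was not called (-0.05 ± 0.03 SE, adjusted p = 0.0966).

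Checkpoint and APC/C genes were split as well. Ttk, a checkpoint kinase, was at 82.3, 76.0 and 84.5 CPM in the shSCR libraries and 89.3, 92.3 and 91.3 CPM in the shPHGDH libraries and rose by 0.21 ± 0.04 (SE), adjusted p = 4.53e-05. Cdc20, the activator of the APC/C, was at 221, 219 and 212 CPM in the shSCR libraries and 188, 192 and 193 CPM in the shPHGDH libraries and was lower (-0.14 ± 0.03 SE, adjusted p = 1.69e-04). Neither gene's groups overlapped, nor did those of any of the 21 called members, while 63.2% of all tested genes had groups that did not overlap. The checkpoint kinases Bub1 and Bub1b and the ubiquitin-conjugating enzyme gene Ube2c had values of -0.06, 0.02 and -0.01 and were not called. At the kinetochore, Ndc80, a subunit of the complex that holds microtubules, was at 92.7, 86.7 and 92.2 CPM in the shSCR libraries and 76.8, 75.2 and 77.1 CPM in the shPHGDH libraries, with no overlap (-0.20 ± 0.04 SE, adjusted p = 3.22e-05). Its partner Nuf2 was not called (0.03 ± 0.04 SE, adjusted p = 0.522). Cenpa, the centromeric histone, was 0.09 higher (adjusted p = 0.0166), while the large kinetochore genes Cenpe and Cenpf were not called (-0.00 and -0.10).

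The 3 genes of the chromosomal passenger complex, which corrects faulty attachments, did not move together. Cdca8, which codes for borealin, was at 176, 186 and 179 CPM in the shSCR libraries and 143, 143 and 145 CPM in the shPHGDH libraries and was lower (-0.28 ± 0.03 SE, adjusted p = 1.84e-08). Aurkb, the kinase of the complex, was lower too (-0.12 ± 0.03 SE, adjusted p = 0.00153). Birc5, which codes for survivin, was at 185, 186 and 182 CPM in the shSCR libraries and 195, 195 and 198 CPM in the shPHGDH libraries and was higher (0.13 ± 0.03 SE, adjusted p = 5.20e-04). In each of the 3 genes the groups stood apart.

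The largest fall of all members was in Nusap1, a microtubule-bundling protein gene on chromosome 2 (119618298 to 119651244, plus strand, GRCm38). It was at 139.6, 132 and 146 CPM in the shSCR libraries and 105, 106 and 105 CPM in the shPHGDH libraries, and each shPHGDH library was within 1 CPM of the others and below all controls (-0.36 ± 0.04 SE, adjusted p = 1.85e-09). Kif2c, the gene of a kinesin that takes microtubules apart, was at 122, 124 and 129 CPM in the shSCR libraries and 105, 102 and 104 CPM in the shPHGDH libraries and fell as well (-0.23 ± 0.03 SE, adjusted p = 1.60e-06). Kif11, the motor that pushes spindle poles apart, rose by 0.10 ± 0.03 (SE), adjusted p = 0.00496; its groups stood apart after TMM scaling but overlapped in CPM. Tpx2 and Hmmr, which code for spindle assembly factors, were not called (-0.04 and 0.07).

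In the midzone and cytokinesis group all 5 genes were called, 2 higher and 3 lower. Anln, which codes for the contractile ring scaffold anillin (chromosome 9, 22332012 to 22389188, minus strand), was at 755, 711 and 754 CPM in the shSCR libraries and 856, 875 and 870.3 CPM in the shPHGDH libraries. This was the largest rise of all members, without overlap (0.27 ± 0.02 SE, adjusted p = 3.49e-10). Kif23, a centralspindlin motor gene, was at 273, 265 and 283 CPM in the shSCR libraries and 297, 317 and 299 CPM in the shPHGDH libraries and also rose (0.19 ± 0.03 SE, adjusted p = 4.38e-06). Prc1, the crosslinker of the central spindle, was at 378, 369 and 385 CPM in the shSCR libraries and 323, 323 and 314 CPM in the shPHGDH libraries and was lower (-0.20 ± 0.03 SE, adjusted p = 3.07e-07). Kif20a, a midzone kinesin gene, and Ect2, which codes for the activator of RHOA in cytokinesis, were lower by smaller amounts (-0.11 and -0.10, adjusted p = 0.00220 and 0.00458). Mki67 and Top2a, common proliferation markers, were not called (-0.02 ± 0.04 and -0.03 ± 0.03, SE). Mki67 was at 1744, 1559 and 1858 CPM in the shSCR libraries and 1616, 1744 and 1595 CPM in the shPHGDH libraries, and the groups overlapped.

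**Figure D1:**
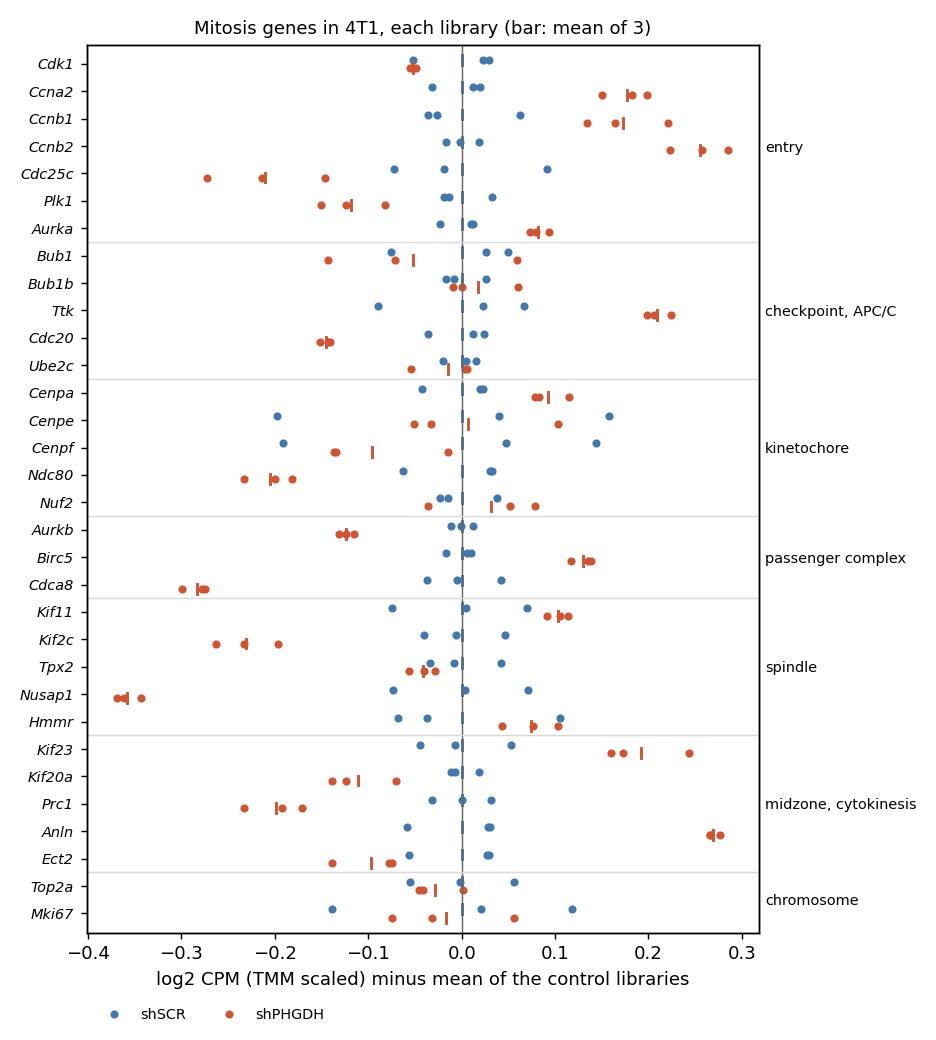
Each point is 1 of 6 4T1 libraries; the x axis is log2 CPM (TMM scaled) minus the mean of the shSCR libraries, genes are ordered by role, and bars are group means of 3 libraries. Members lie on both sides of 0 in nearly every role, from Nusap1 at -0.36 to Anln at 0.27.

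Members were also set beside their chromosomes in this comparison. The median log2 fold change of all tested genes differed by chromosome, from -0.25 on chromosome 8 to 0.51 on chromosome 14. Of the 21 members called, 18 (85.7%) had the sign of their own chromosome's median; Aurka, Birc5 and Ect2 did not. The same held for 73.3% of all 6685 called genes with a chromosome. On chromosome 9, with a median of 0.14, Ccnb2, Ttk, Kif23 and Anln were all higher. On chromosome 4, with a median of -0.22, Cdc20, Cdca8 and Kif2c were all lower. Relative to the chromosome median, the members' median absolute log2 fold change was 0.07, against 0.11 before, and the sign turned for Ccnb1 (-0.07), Cdc20 (0.08), Kif11 (-0.001) and Kif20a (0.03). Nusap1 stayed at -0.33 and Birc5 at 0.17, while Ect2 went to -0.22, on a chromosome whose median was 0.13. Whether copy number or clonal origin of the transduced cells plays a part was not tested.

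**Figure D2:**
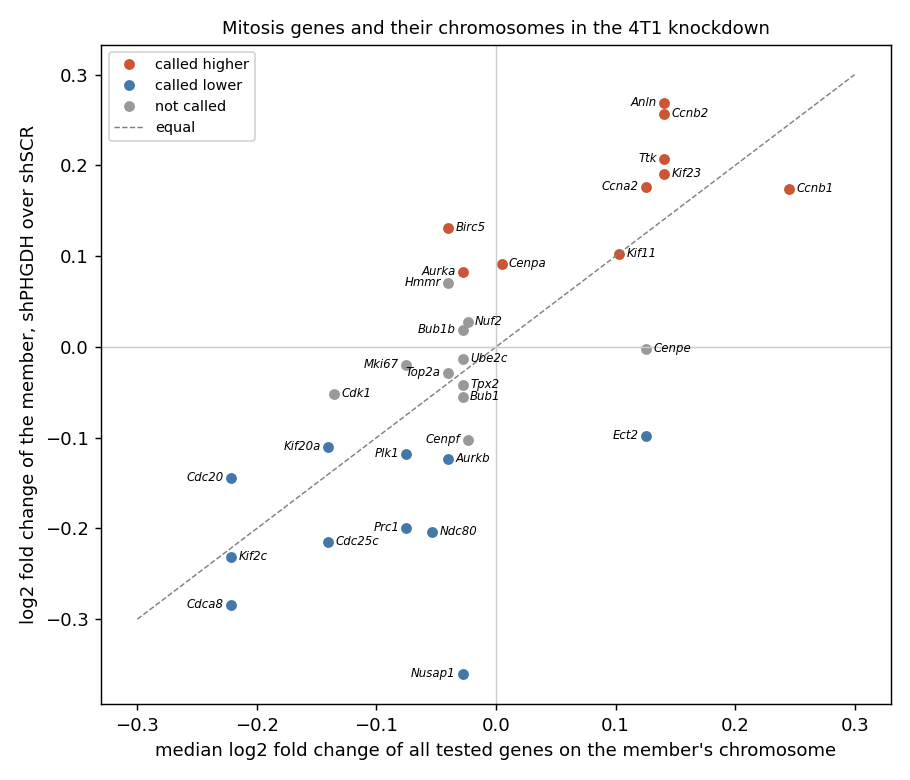
Each point is 1 of the 32 members in the 4T1 knockdown; the x axis is the median log2 fold change of all tested genes on its chromosome, the y axis its own log2 fold change, and the dashed line marks equal values. Of the 21 called members, 18 lie in the lower left or upper right quadrant; Nusap1, at -0.36, lies far below its chromosome's median of -0.03.

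Some of these calls changed with the control libraries used. The labels place shSCR 1 and 2 in lane 5 and the other 4 libraries in lane 6, so that a lane term leaves shSCR 3 as the only control of its lane, and lane and single libraries cannot be told apart. With lane as a term, Kif11 was no longer called, and Cenpe, Cenpf, Tpx2, Top2a and Mki67 were called, which gave 25 members; lane 6 alone, with 1 shSCR library, also gave 25. Without shSCR 2 the same gene lost its call and Bub1, Cenpe, Cenpf and Mki67 gained one. The smallest changes were the least firm: Aurka lost its call without shSCR 3, shPHGDH 1 or shPHGDH 3, Cenpa without shSCR 3, Ect2 without shPHGDH 3, and Aurka, Cenpa and Kif11 with library totals as the scaling. Cdk1, Bub1, Cenpf, Tpx2 and Top2a gained a call, all lower, with library totals. The members with the longest transcripts varied among replicates: shSCR 2 had 1559 CPM of Mki67, 437 of Cenpf and 364 of Cenpe, below shSCR 1 and 3. Within that library, the deviation from the group mean fell with the length of a member's longest transcript (Spearman -0.57 over 32 members), and in shSCR 3 it rose (0.59). Across all 11139 genes with a length the same values were -0.13 and 0.14. These coefficients describe genes of 1 library each, which share its depth and RNA; the part of RNA quality was not tested.

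Genes that act with the members, listed apart from them, were as mixed. Unlike the members, they are not set beside their chromosomes here, whose medians ran from -0.25 to 0.51. Of 90 other mitosis genes, 30 were higher and 31 lower. The largest rise was in Bora, whose product activates Aurora kinase A, at 0.66 (adjusted p = 1.10e-11). Next were Ska3, a kinetochore gene, at 0.55 (adjusted p = 1.07e-09), and H2afx, a histone gene, at 0.55 (adjusted p = 1.14e-11). The largest falls were in Melk, a kinase gene, at -0.47 (adjusted p = 7.78e-12), Cenpn, a centromere gene, at -0.42 (adjusted p = 3.48e-08), and Pttg1, which codes for securin, at -0.39 (adjusted p = 1.42e-08). Of 44 replication genes, 16 were higher and 16 lower. Among regulators of the cycle, 9 of 34 tested were higher and 14 lower. Foxm1 and Mybl2, activators of G2 and M genes, were not called (0.04 and 0.01, adjusted p = 0.210 and 0.779). Cdkn1a, the p21 gene, rose by 1.48 (adjusted p = 5.67e-13), Ccnd1 by 0.52 (adjusted p = 7.61e-17) and the repressor gene E2f8 by 0.48 (adjusted p = 2.95e-13). Rbl2, a DREAM pocket protein gene, fell by 0.69, Cdk2 by 0.54 and E2f1 by 0.31, with adjusted p = 3.08e-09, 3.58e-11 and 6.31e-07.

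In MDA-MB-231, the libraries labelled PHGDH-overexpressing were compared with the controls. Here 15 members were higher and 4 lower in the labelled libraries, and 13 were not called. PHGDH itself went against these labels, and with the groups exchanged the counts would be 4 higher and 15 lower. By the same rule 44.5% of the 17663 tested genes were called, 21.6% higher and 22.9% lower. The members' median was 0.09 against -0.01 for all tested genes. The largest rises were in PRC1 and KIF23, genes of the central spindle, and the largest fall was in NDC80.

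Of 7 entry genes, 5 were higher and none lower. CCNB1 was at 334, 334 and 348 CPM in the control libraries and 407, 419 and 418 CPM in the labelled libraries. The groups lay apart, with a log2 fold change of 0.35 ± 0.05 (SE), adjusted p = 1.80e-05. AURKA was at 224, 222 and 228 CPM in the control libraries and 267, 273 and 267 CPM in the labelled libraries and was likewise separate (0.32 ± 0.05 SE, adjusted p = 5.12e-05). CDC25C (0.35), PLK1 (0.28) and CCNB2 (0.24) also rose, with adjusted p from 0.000736 to 0.00379. CCNA2 and CDK1 were not called (0.04 and -0.16). CDK1 was at 178, 174 and 184 CPM in the control libraries and 127, 182 and 150.3 CPM in the labelled libraries. In CPM, 1 labelled library lay within the range of the controls and 2 below it. After TMM scaling labelled library 2 lay above all controls, at 0.08 over their mean against 0.06 for the highest control.

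UBE2C, of the APC/C machinery, was at 182, 182 and 193 CPM in the control libraries and 221, 234 and 228 CPM in the labelled libraries and rose without overlap (0.36 ± 0.06 SE, adjusted p = 2.52e-05). CDC20 rose less (0.16 ± 0.06 SE, adjusted p = 0.0238). The checkpoint kinase BUB1 was lower (-0.17 ± 0.06 SE, adjusted p = 0.0251), and BUB1B and TTK were not called (-0.03 and -0.13). No kinetochore gene was higher, and CENPA, CENPF and NUF2 were not called (-0.14, 0.00 and -0.18). NDC80 was at 72.1, 73.2 and 76.8 CPM in the control libraries and 55.0, 57.8 and 52.9 CPM in the labelled libraries, all labelled libraries below all controls (-0.36 ± 0.07 SE, adjusted p = 1.20e-04). CENPE was at 126, 79.7 and 82.2 CPM in the control libraries and 74.7, 103 and 95.8 CPM in the labelled libraries, where control 1 stood above the other 5 libraries. Without that library CENPE was called higher, at 0.23 (adjusted p = 0.0401), while with all libraries it was not (-0.02 ± 0.13 SE, adjusted p = 0.935). Control 1 was also the highest library for CENPF (420.4 CPM) and MKI67 (1060 CPM).

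All 3 passenger genes rose: CDCA8 by 0.30 ± 0.06 (SE), adjusted p = 1.62e-04, BIRC5 by 0.24 ± 0.06 (SE), adjusted p = 0.00159 and AURKB by 0.22 ± 0.06 (SE), adjusted p = 0.00551. Their groups did not overlap. In the spindle group TPX2 (0.23) and KIF2C (0.17) were higher. NUSAP1 was lower (-0.16 ± 0.06 SE, adjusted p = 0.0474), and its groups overlapped after TMM scaling but not in CPM. It was the only member called with groups that overlapped after TMM scaling. CENPA was not called although its groups stood apart on that scale. Of all tested genes, 52.5% had groups that did not overlap. KIF11 and HMMR were not called (0.00 and -0.08).

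PRC1 was at 224, 216 and 226 CPM in the control libraries and 332, 335 and 339 CPM in the labelled libraries. The labelled libraries stood far above the controls, with the largest rise of any member (0.65 ± 0.06 SE, adjusted p = 2.69e-09). KIF23 was at 134, 131 and 132 CPM in the control libraries and 191, 194 and 176 CPM in the labelled libraries, also without overlap (0.55 ± 0.06 SE, adjusted p = 8.42e-08), and KIF20A rose by 0.29 ± 0.06 (SE), adjusted p = 2.92e-04. ECT2 was at 244, 229 and 221 CPM in the control libraries and 178, 210.4 and 173 CPM in the labelled libraries and was lower (-0.24 ± 0.07 SE, adjusted p = 0.00521). ANLN, TOP2A and MKI67 were not called (-0.04, 0.10 and 0.08). Without control 1, TOP2A and MKI67 were called higher, at 0.17 and 0.19 (adjusted p = 0.0267 and 0.0129). Calls of lower members depended on single libraries: they numbered 2 to 8 when each library was left out, with 2 (NDC80 and ECT2) without control 1 or 3 or without labelled library 1 or 3, and 8 without labelled library 2, where CDK1, TTK, CENPA and NUF2 were added. CDC20 lost its call without control 1 or 2 or labelled library 3, and KIF2C without control 2. They numbered 7 with library totals as the scaling.

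**Figure D3:**
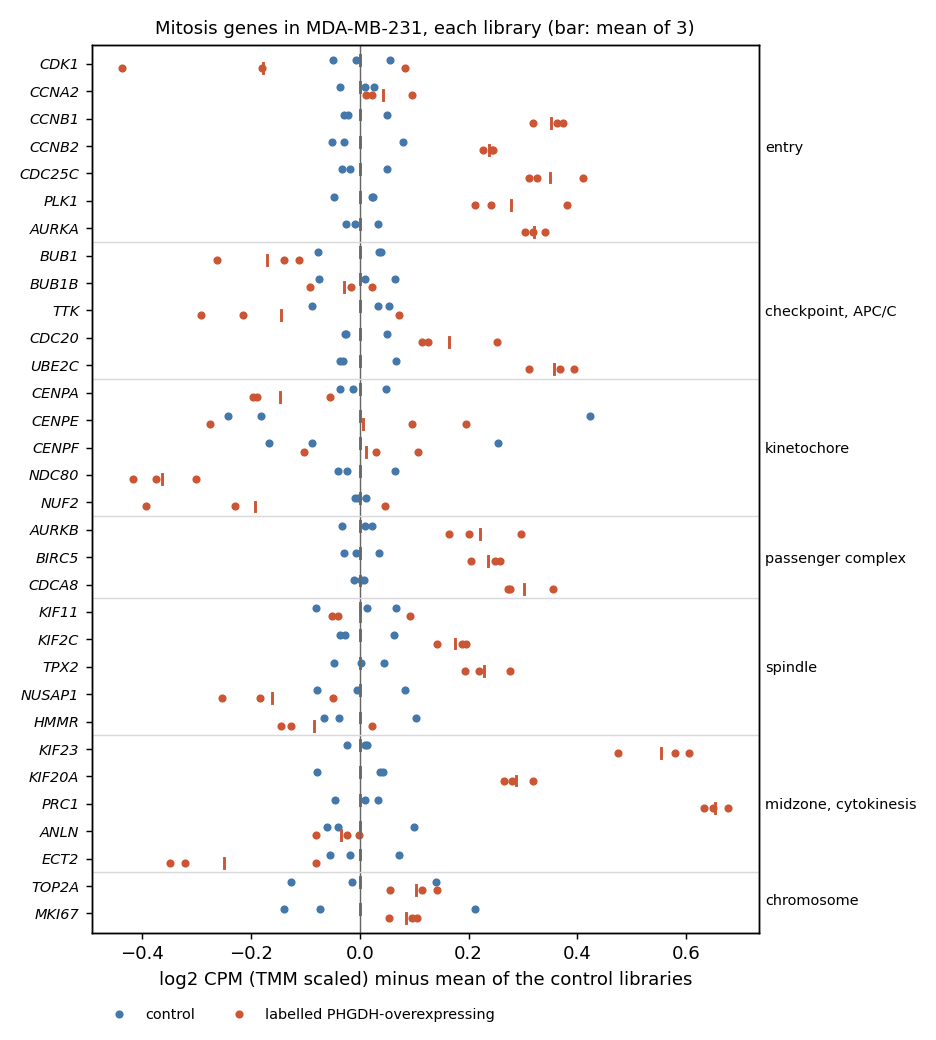
Each point is 1 of 6 MDA-MB-231 libraries; the x axis is log2 CPM (TMM scaled) minus the mean of the controls, genes are ordered by role, and bars are group means of 3 libraries. The entry, passenger and midzone genes hold most of the 15 members that were higher, with PRC1 at 0.65 and KIF23 at 0.55, and the 5 kinetochore genes lie between -0.36 and 0.002.

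Genes of the related lists moved both ways. Of 90 other mitosis genes, 27 were higher and 18 lower. The largest rises were in ESPL1, which codes for separase, at 0.63 (adjusted p = 9.79e-08), CDCA3 at 0.61 (adjusted p = 2.47e-08), and NCAPD2, a condensin gene, at 0.60 (adjusted p = 1.55e-08). Kinetochore genes led the falls: ZWILCH at -0.51 (adjusted p = 9.22e-06), SKA1 at -0.39 (adjusted p = 6.43e-04) and CENPK at -0.37 (adjusted p = 0.00129). Of 44 replication genes, 13 were higher and 9 lower. FOXM1 rose by 0.43 (adjusted p = 1.37e-06), MYBL2 by 0.28 (adjusted p = 0.00148) and E2F1 by 0.30 (adjusted p = 2.67e-04). CCND1 was lower, at -0.68 (adjusted p = 8.28e-10), as were E2F3 (-0.66, adjusted p = 3.19e-08), MYC (-0.43, adjusted p = 1.05e-05) and NFYA, an NF-Y subunit gene (-0.45, adjusted p = 1.74e-05). The epithelial markers summed to 1900 to 2126 CPM in the labelled libraries and 1325 to 1346 CPM in the controls; their part in the result was not tested.

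The co-culture set first shows the level of mitosis genes in 3 kinds of cell. All 32 were lower in Bend3 than the mean of the tumour lines, and 28 passed the threshold with none higher; 39.1% of the 13092 tested genes were called in this fit, 17.6% lower. The median was -1.56 against -0.01 for all tested genes. The fit took cell line and co-culture as terms over 7 libraries, with 3 residual degrees of freedom. Each condition had 1 library, so libraries of the same line in different cultures stood in as replicates. The SE and adjusted p-values of this fit measure the spread left among them, not that between repeated cultures. Cdk1, Nuf2, Kif2c and Kif20a were not called, with values from -0.62 to -1.13.

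Plk1 had the largest difference. It was at 189.6 and 189 CPM in 4T1 alone and with Bend3, 237 and 179 CPM in EMT6.5, and 33.1, 44.8 and 26.4 CPM in Bend3 alone, with 4T1 and with EMT6.5. Every Bend3 library lay below every tumour library (-2.33 ± 0.26 SE, adjusted p = 2.01e-04). Ect2 was at 149.6 and 92.8 CPM in 4T1, 95.4 and 25.4 CPM in EMT6.5, and 8.37, 16.5 and 18.1 CPM in Bend3, again without overlap (-2.18 ± 0.50 SE, adjusted p = 0.00865). Kif11 (-2.16), Cdc25c (-2.10) and Anln (-1.98) came next in size. Mki67 was at 70.3, 80.5 and 34.4 CPM in Bend3, against 101 to 207 CPM in the tumour libraries (-1.25 ± 0.38 SE, adjusted p = 0.0302). Top2a had the highest level of the list in all 7 libraries, 215 to 339 CPM in Bend3 and 811 to 1555 CPM in the tumour lines.

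Other mitosis genes shared this difference, with 59 of 89 lower and 1, Psrc1, higher, and so did replication genes, with 21 of 44 lower and none higher. Regulators of the cycle went both ways, with 8 of 36 higher and 11 lower. Foxm1 was lower, at -1.14 (adjusted p = 0.00742), as were E2f2, at -3.08 (adjusted p = 0.00331), and E2f8, at -2.55 (adjusted p = 0.00701). Inhibitor genes of cyclin-dependent kinases were split: Cdkn1a was higher by 3.65 (adjusted p = 2.56e-05), while Cdkn1b and Cdkn2c were lower, at -1.11 (adjusted p = 0.00293) and -1.13 (adjusted p = 0.0450). Cdkn2a and Cdkn2b were called higher too, with no fold given. Cdkn2a had too few counts in 4T1, and Cdkn2b did not pass the filter on low counts in the tumour libraries alone. Btg2, an antiproliferative gene, was higher by 3.79 (adjusted p = 1.19e-05) and Ccnd1 by 2.49 (adjusted p = 1.84e-04). When each library was left out, 24 to 30 members were called; Mki67 lost its call in 5 of the 7 cases and Bub1 in 4, and Ccnb2 and Aurka in 2 each. Between the tumour lines, 4T1 and EMT6.5, no member passed the threshold in edgeR or DESeq2 (2 at an unadjusted p under 0.05, Cdk1 and Ndc80), where 10.4% of genes did in edgeR (4.94% higher and 5.42% lower in 4T1).

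**Figure D4:**
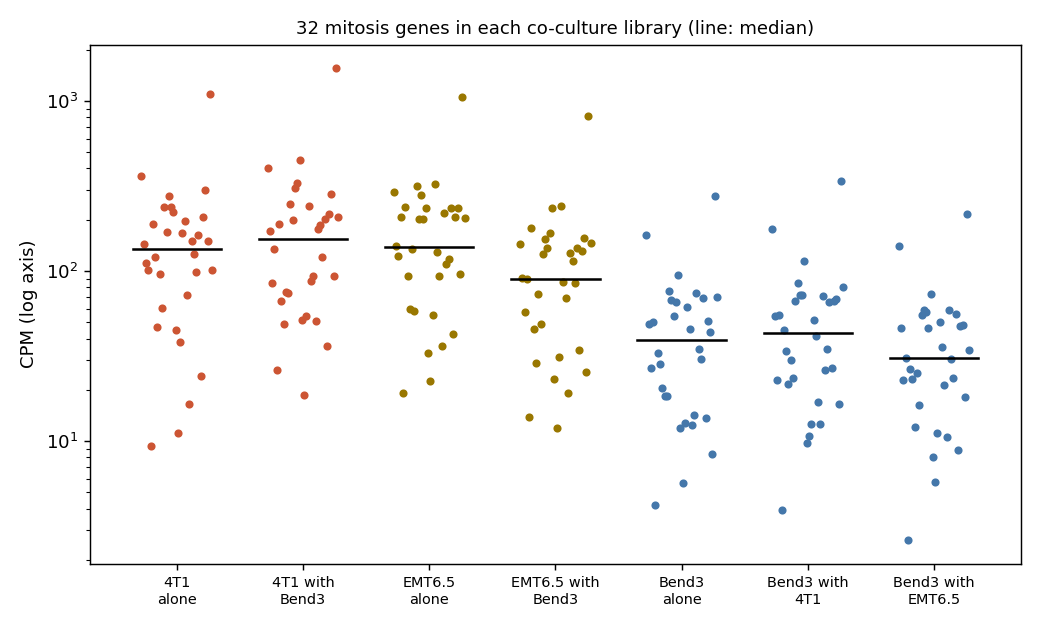
Each point is 1 of the 32 members in 1 of 7 libraries; the y axis is CPM on a log axis and lines are medians. The medians were 134 and 153 CPM in 4T1 alone and with Bend3, 138 and 90.03 CPM in EMT6.5, and 39.2, 43.0 and 30.6 CPM in Bend3 alone, with 4T1 and with EMT6.5.

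Co-culture itself was compared with 1 library per condition, so these differences have no replicate check. Ratios of CPM are given with exact 95% intervals, which cover counting error only, and a member was counted where its TMM-scaled ratio passed 1.5-fold in a pair with a mean of at least 5 CPM. In 4T1 with Bend3, 26 of 32 members were above 4T1 alone, with a median log2 ratio of 0.36 against 0.04 for all genes. In EMT6.5 with Bend3, 2 of 32 were above EMT6.5 alone, with a median of -0.60 against -0.04. Past 1.5-fold, 10 members were higher and 3 lower in 4T1, where 47.6% of genes passed (25.5% higher and 22% lower). Those higher numbered 6 with library totals as the scaling and 7 with TMM over the pair. In EMT6.5 none was higher and 16 were lower, where 29.7% passed (12.9% higher and 16.8% lower). The difference between the lines was not tested.

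All 7 entry genes had ratios below 1 in EMT6.5. Cdk1 was at 290.4 CPM alone and 143 CPM in co-culture, a ratio of 0.492 (95% interval 0.451 to 0.537). In 4T1 it was at 361 CPM alone and 403 CPM in co-culture, a ratio of 1.12 (95% interval 1.04 to 1.20). Ccnb2 showed the same contrast, with ratios of 0.436 (95% interval 0.390 to 0.485) in EMT6.5 and 1.33 (95% interval 1.18 to 1.52) in 4T1. Ccnb1 and Aurka were below 1 in both lines: Aurka had ratios of 0.488 (95% interval 0.417 to 0.570) and 0.550 (95% interval 0.474 to 0.637), and Ccnb1 of 0.467 (95% interval 0.406 to 0.535) and 0.768 (95% interval 0.668 to 0.882). Cdc25c had a high ratio in 4T1, 2.80 (95% interval 1.93 to 4.12), on 40 and 111 counts.

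Cdc20 had the lowest ratio of the checkpoint and APC/C genes in EMT6.5, from 316 to 126 CPM, a ratio of 0.399 (95% interval 0.364 to 0.437), and was near 1 in 4T1 (1.04, 95% interval 0.955 to 1.14). At the kinetochore, Cenpf was at 223 CPM alone and 450.0 CPM in co-culture in 4T1, a ratio of 2.02 (95% interval 1.86 to 2.18). In EMT6.5 it was at the same level in both libraries (0.999, 95% interval 0.926 to 1.08). Cenpa had ratios of 1.11 (95% interval 1.03 to 1.20) in 4T1 and 0.491 (95% interval 0.448 to 0.536) in EMT6.5. Cenpf and Nusap1 were the 2 members above EMT6.5 alone after TMM scaling; Nusap1 had a CPM ratio just over 1 there (1.04, 95% interval 0.929 to 1.16), and it had a ratio of 1.49 (95% interval 1.34 to 1.67) in 4T1.

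Passenger genes lay on both sides of 1 in 4T1. Cdca8 was at 195 CPM alone and 86.7 CPM in co-culture, the lowest ratio in that pair (0.444, 95% interval 0.392 to 0.502), while Birc5 and Aurkb had ratios of 1.45 (95% interval 1.31 to 1.59) and 1.43 (95% interval 1.17 to 1.76). In the spindle group Kif2c had the highest ratio of any member in 4T1, 3.07 (95% interval 2.34 to 4.07), at 16.5 CPM alone and 50.6 CPM in co-culture. In EMT6.5 its ratio was 0.532 (95% interval 0.414 to 0.677). Ect2, at the midzone, was lower in both tumour lines: 0.620 (95% interval 0.546 to 0.704) in 4T1 and 0.266 (95% interval 0.217 to 0.323) in EMT6.5, the lowest ratio of that pair. Mki67 was at 101 CPM alone and 207 CPM in co-culture in 4T1 (2.06, 95% interval 1.83 to 2.31) and at 204 CPM alone and 146 CPM in co-culture in EMT6.5 (0.714, 95% interval 0.652 to 0.782).

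**Figure D5:**
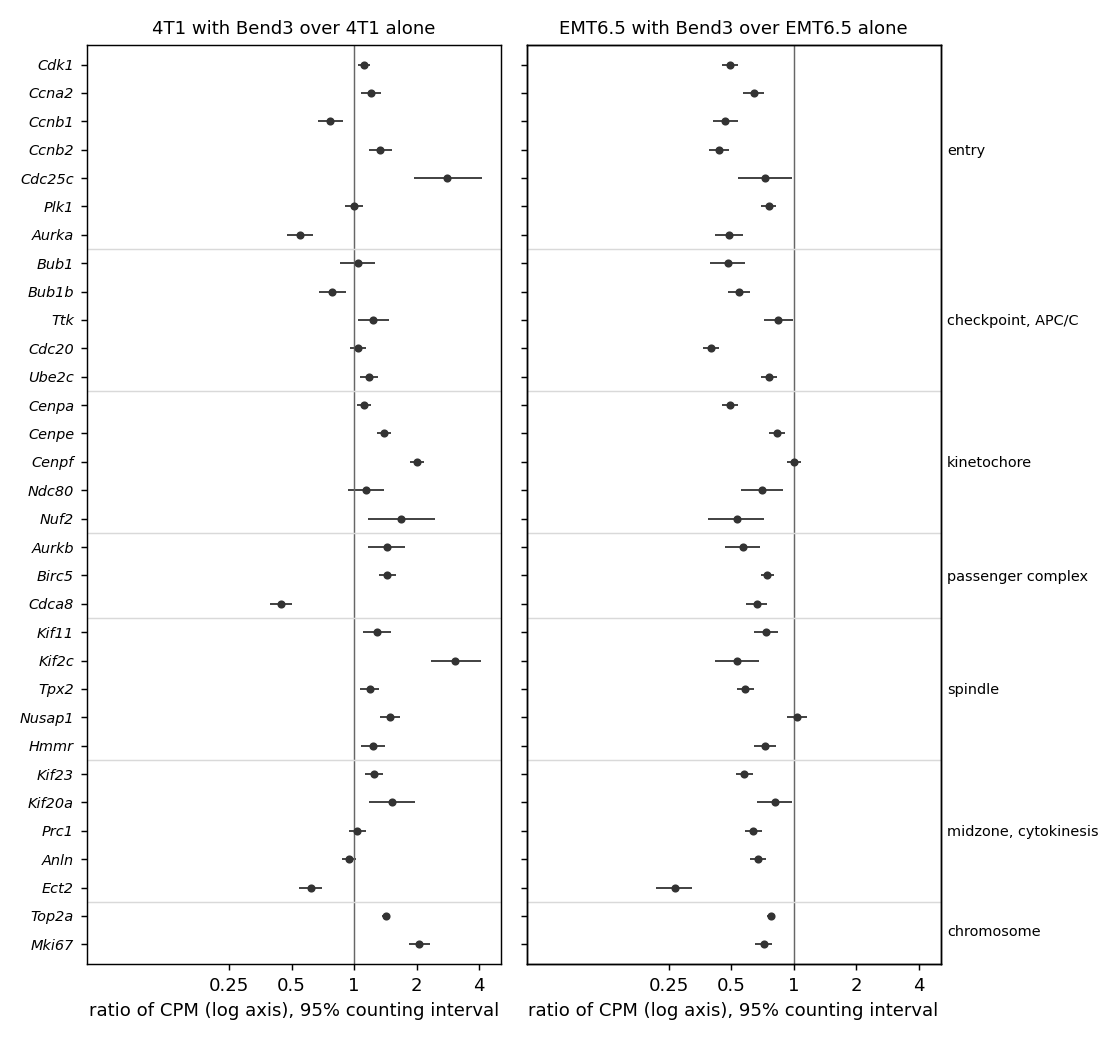
Points are ratios of CPM in co-culture over the same line alone on a log axis, for 4T1 (left) and EMT6.5 (right), with 1 library per condition and 95% counting intervals; genes are ordered by role. Most members lie right of 1 in 4T1 and left of 1 in EMT6.5, and Aurka, Bub1b, Ccnb1, Cdca8 and Ect2 lie left in both with intervals that leave out 1.

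A fit over the 4 tumour libraries, with line as a term, asked what both lines shared. It left 1 residual degree of freedom and called 0.292% of genes. No member was called, in edgeR or DESeq2, and 3 had an unadjusted p under 0.05: Ect2 at -1.24 ± 0.43 (SE), adjusted p = 0.420, Aurka at -0.90 ± 0.38 (SE), adjusted p = 0.556 and Cdca8 at -0.84 ± 0.38 (SE), adjusted p = 0.605. Related genes lay on the side of most members in each line. Other mitosis genes were above culture alone for 69 of 87 in 4T1 and 8 of 87 in EMT6.5, and replication genes for 35 of 44 and 7 of 44. Markers of other cells differed as well. The 15 endothelial markers summed to 109 CPM in 4T1 alone and 230.1 CPM in 4T1 with Bend3, and to 131 and 136 CPM in EMT6.5. The 8 fibroblast genes summed to 24.6 and 175 CPM in 4T1 and to 39.5 and 1047 CPM in EMT6.5, where Col6a1 went from 1.56 to 607 CPM and Col6a2 from 0.261 to 333 CPM, with Dcn and Lum at 0 in all 7 libraries; the part of either list in the result was not tested.

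Bend3 cells were compared with Bend3 alone, a library that both pairs share. Cdc25c was under 5 CPM and was not counted. With 4T1, 21 of 31 members were above Bend3 alone (median 0.19 against 0.01 for all genes), and 5 were higher and none lower past 1.5-fold, where 16.4% of genes passed (8.8% higher and 7.64% lower). With EMT6.5, 5 of 31 were above it (median -0.32 against -0.001), with 2 higher and 5 lower, where 16.1% of genes passed (8.16% higher and 7.96% lower). Ect2 was higher in both, at 8.37 CPM alone, 16.5 CPM with 4T1 and 18.1 CPM with EMT6.5, with ratios of 1.97 (95% interval 1.35 to 2.93) and 2.16 (95% interval 1.49 to 3.19). Kif20a had ratios of 1.97 (95% interval 1.46 to 2.67) and 0.652 (95% interval 0.443 to 0.955), on either side of 1. Kif11 was at 1.73 (95% interval 1.26 to 2.40) with EMT6.5 and 1.38 (95% interval 0.990 to 1.94) with 4T1. Mki67 was at 0.490 (95% interval 0.409 to 0.585) with EMT6.5, the lowest of that pair, and 1.15 (95% interval 0.994 to 1.32) with 4T1.

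In a fit of both Bend3 co-cultures against Bend3 alone, which has 1 residual degree of freedom and assumes that the lone library varies like the others, edgeR called 0 of 12410 genes (953 at an unadjusted p under 0.05; 29 by DESeq2). It therefore called no member; Ect2 had an unadjusted p of 0.0294 (1.01 ± 0.36 SE, adjusted p = 0.628). Epithelial markers summed to 1.88 CPM in Bend3 alone, 49.7 CPM with 4T1 and 7.30 CPM with EMT6.5, against 2061 CPM in 4T1 alone. Members stood higher in the tumour lines than in Bend3, and the part of tumour RNA in the Bend3 libraries was not tested.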

How the data were processed

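RNA was read from cultured cells in 19 libraries made with TRIzol and a KAPA stranded mRNA kit and sequenced on a HiSeq4000, per the labels' protocols. The authors trimmed reads with Trim Galore 0.5.0, aligned them with HISAT2 2.1.0 and used HTSeq, with GRCm38 named for mouse, per the submitters' processing notes; the human build was not named there. The deposited values are raw counts of reads per gene. Of the knockdown counts, 10 further library columns were not used. Entries that name no gene were left out of library sizes; reads aligned to several places were 48.2% to 55.3% of entries in the co-culture files and 3.54% to 3.70% in the MDA-MB-231 table, so near-identical copies may be undercounted.

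Counts were compared with edgeR 4.0.16 in R 4.3.3 (TMM scaling, default filter on low counts, quasi-likelihood test), with Benjamini-Hochberg adjustment over all tested genes and calls at an adjusted p under 0.05. Single-library pairs were compared by log2 CPM after TMM scaling (prior count 2) and by CPM ratios with exact conditional binomial intervals. DESeq2 1.42.0, library totals, no filter, left-out libraries, a replicate block, a lane term and chromosome medians were alternatives. Scripts were tested on simulated data. Transcript lengths and gene positions came from GENCODE vM21. Every member is described; of the other mitosis and replication lists, called genes with the largest changes and a mean of at least 10 CPM are named, and any regulator of the cycle could be named. The members and lists were chosen with earlier results of these data known.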

Additional observations from a re-analysis of the deposited data

Results flagged for a closer look

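Members were singled out here because their ratio of co-culture over culture alone, in CPM, lay above 1 with one partner and below 1 with the other, with 95% counting intervals that leave out 1 on both sides. Each condition had 1 library, so the difference was not tested. Of the 32 members, 19 met this between the tumour lines. The share of all genes that met it, here or in Bend3, was not counted, so no background stands beside the 19. Another measure, 1.5-fold in either direction within 1 pair, was passed by 47.6% of all genes in 4T1 and 29.7% in EMT6.5. It asks for no opposite directions and is no background for the 19. Among entry genes, Cdk1 had ratios of 1.12 in 4T1 and 0.492 in EMT6.5, Ccna2 of 1.20 and 0.641, Ccnb2 of 1.33 and 0.436 and Cdc25c of 2.80 and 0.729. For the checkpoint kinase Ttk and the APC/C partner Ube2c, Ttk had ratios of 1.24 in 4T1 and 0.842 in EMT6.5 and Ube2c of 1.18 and 0.761. At the kinetochore, Cenpa had ratios of 1.11 in 4T1 and 0.491 in EMT6.5, Cenpe of 1.39 and 0.828 and Nuf2 of 1.68 and 0.530. In the passenger complex, Aurkb had ratios of 1.43 in 4T1 and 0.566 in EMT6.5 and Birc5 of 1.45 and 0.743. Among spindle genes, Kif11 had ratios of 1.29 in 4T1 and 0.735 in EMT6.5, Kif2c of 3.07 and 0.532, Tpx2 of 1.19 and 0.582 and Hmmr of 1.23 and 0.728. At the midzone, Kif23 had ratios of 1.24 in 4T1 and 0.578 in EMT6.5 and Kif20a of 1.52 and 0.808. For the proliferation markers, Top2a had ratios of 1.42 in 4T1 and 0.773 in EMT6.5 and Mki67 of 2.06 and 0.714. Aurka, Bub1b, Ccnb1, Cdca8 and Ect2 had ratios below 1 in both lines, with intervals that leave out 1, and were not among them.

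In Bend3, which share 1 library grown alone, Cenpf had ratios of 1.22 with 4T1 and 0.775 with EMT6.5, Kif20a of 1.97 and 0.652, and Top2a of 1.23 and 0.783.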

How the results depend on the processing

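In the knockdown, 19 to 24 members were called when each library was left out, 25 with a lane term, 23 with library totals and 21 with DESeq2. In the same order, the shares of all genes called were 54.1% to 56.7%, 50.1%, 60.9% and 50.8%. Minus the chromosome median, Ccnb1 became -0.072, Cdc20 0.077, Kif11 -0.0014 and Kif20a 0.031. In MDA-MB-231, members called lower numbered 4, 7 with library totals and 2 to 8 when libraries were left out; CENPE ranged from -0.14 to 0.23. DESeq2 called 18 members there and lost NUSAP1. The replicate block called 21 members in the knockdown and 18 in MDA-MB-231. Correlations of same-numbered deviations ran from -0.05 to 0.04, so the numbers were not taken to pair libraries; a lane term or block uses up degrees of freedom.

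With few libraries, calls over all genes moved: 35 in the tumour co-culture fit, 93 with DESeq2 and 204 without a filter; 0 for Bend3, 60 with library totals and 29 with DESeq2; 1357 for 4T1 against EMT6.5, 2052 with DESeq2 and 280 to 2358 when libraries were left out, with 0 to 1 members lower. Past 2-fold, 4 members were higher and 1 lower in 4T1 with Bend3, 8 lower in EMT6.5, 0 higher in Bend3 with 4T1, and 1 higher and 1 lower with EMT6.5. With library totals 6 were higher in 4T1. The cause was not tested. TTTGAA alone was in 79.3% of member windows and 17.9% of all windows. Either CHR form was in 89.7% (exact 95% interval 72.6 to 97.8) and 27.6%. The interval takes windows as independent, although those of Ect2 and Prc1 overlap, and windows with TTTGAA are among those with either form.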

Other observations

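The level of the same genes in 4T1 control libraries differed between the sets: 4T1 grown alone is not labelled as transduced, while the shSCR libraries carried a scrambled hairpin. Depth differed too, with 4.30 M gene counts in 4T1 grown alone and 14.4 M to 19.0 M in the shSCR libraries. The sets were normalized separately and are placed side by side only. Mki67 was at 101 CPM in 4T1 grown alone in the co-culture set and at a mean of 1721 CPM in the shSCR libraries, 17.1-fold higher. Nuf2 was at 11.2 and 117 CPM, Kif20a at 23.9 and 243 CPM and Kif2c at 16.5 and 125 CPM. Cdk1 was at 361 and 348 CPM, so the gap was not shared by all members. The ratio of 4T1 grown alone over the shSCR mean fell with the length of the longest transcript. The Spearman coefficient was -0.36 over the 32 members and -0.25 over 8604 genes. The cause of the gap was not tested.

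Among the members, long transcripts tended to move together within single knockdown libraries. Over the 32 members, the Spearman coefficient between a library's deviation from its group mean and the length of the longest transcript was 0.28, -0.57 and 0.59 in shSCR 1 to 3 and -0.44, 0.52 and -0.31 in shPHGDH 1 to 3. For the difference between the groups it was 0.04. The same coefficient over all genes lay between -0.13 and 0.14. It was -0.03 in shSCR 1 and -0.01, -0.02 and 0.02 in shPHGDH 1 to 3, so long transcripts in general did not share the members' pattern there. Deviations are taken from the mean of the same 3 libraries, so the coefficients within a group are not independent. In the co-culture pairs it was 0.18 for 4T1, 0.32 for EMT6.5, and 0.34 and 0.07 for Bend3 with 4T1 and with EMT6.5. These are descriptions across genes, which are not independent replicates.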
